A study of Mus musculus with 12 samples.

Results

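The aryl hydrocarbon receptor gene Ahr was examined together with its dimerization partner Arnt and with Tiparp, Cyp1b1 and Nqo1, which the receptor is known to induce. These 5 genes were taken by name from the 13233 genes of the deposited RNA-Seq table, and all 5 were present in every sample. The set was chosen by the known biology of these genes and with their normalized counts in the 4 groups already seen, so their levels and differences are given as a description without p-values. RNA had been measured in hernia-associated fibroblasts (HAFs), which are primary fibroblasts from the skeletal muscle of the lower abdomen (LAM) of Aromhum mice. All 12 samples shared this genotype, a human aromatase transgene carried on a bacterial artificial chromosome in FVB/N mice. Aromatase converts androgens to estrogens, and these mice develop scrotal hernias. Cells were kept for 48 h in 1 of 4 conditions, with 3 samples in each: the ethanol and DMSO vehicle, estradiol (E2) at 10 nM, fulvestrant at 100 nM, or both agents together at these doses. Fulvestrant or DMSO was given first, and E2 or ethanol was added afterwards. Fulvestrant is an antagonist of estrogen receptors that also leads to their degradation. The cells had been passaged once, starved of serum overnight and treated in medium with very little charcoal-stripped serum. The sources used here state neither the age of the mice nor whether the replicates came from separate mice or cultures, so the p-values given below measure only the spread between these samples.

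AHR is a ligand-activated transcription factor of the bHLH-PAS family. Without ligand it is held in the cytoplasm by HSP90 and cochaperones. On binding a ligand, such as a dioxin or a tryptophan metabolite, it enters the nucleus, pairs with ARNT and binds xenobiotic response elements. TIPARP adds ADP-ribose to AHR and lowers its activity, which makes it a feedback target. CYP1B1 oxidizes E2 to a catechol estrogen, and NQO1 reduces quinones, including those that catechol estrogens form. NQO1 is also a classical target of the oxidative stress factor NRF2. AHR and ESR1, the main estrogen receptor of these fibroblasts, are known to influence each other's activity.

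The regions just upstream of the 3 target genes show how far the letters of the AHR binding core lie from each start. Capitals mark that core, GCGTG or its reverse complement CACGC. Each region is the part of the 250 bases before the RefSeq start (GRCm38.p6) that lies outside the annotated gene, written 5′ to 3′ on the strand of the gene. The Tiparp region is chr3:65528197-65528409 on the plus strand, the Cyp1b1 region chr17:79715062-79715311 on the minus strand and the Nqo1 region chr8:107403207-107403455 on the minus strand.
Tiparp: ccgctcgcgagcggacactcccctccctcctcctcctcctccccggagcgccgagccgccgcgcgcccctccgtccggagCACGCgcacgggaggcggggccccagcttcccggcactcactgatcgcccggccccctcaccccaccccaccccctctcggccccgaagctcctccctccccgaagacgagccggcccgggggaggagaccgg
Cyp1b1: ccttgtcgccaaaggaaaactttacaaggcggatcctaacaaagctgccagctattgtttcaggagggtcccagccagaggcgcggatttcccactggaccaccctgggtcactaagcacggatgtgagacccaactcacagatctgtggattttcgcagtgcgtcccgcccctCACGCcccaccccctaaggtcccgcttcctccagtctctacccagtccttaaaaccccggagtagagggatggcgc
Nqo1: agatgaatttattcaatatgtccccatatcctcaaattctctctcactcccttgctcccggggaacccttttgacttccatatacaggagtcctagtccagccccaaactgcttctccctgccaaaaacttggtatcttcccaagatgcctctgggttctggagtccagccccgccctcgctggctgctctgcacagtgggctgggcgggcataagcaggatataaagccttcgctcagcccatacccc

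The core lay 170 bases before the start of Tiparp, 76 bases before that of Cyp1b1 and 29 bases before that of Arnt, and the Nqo1 window held none. Of 32851 RefSeq promoter windows of the same length, 28.2% held the core, searched on both strands. The longer form TNGCGTG, which contains the core, was in 4.10% of all windows and in none of the 4 member windows. The antioxidant response element TGACNNNGC was in 10.2% of all windows, with 2 matches for Arnt and none for the other three. The estrogen response element motif GGTCA (a single arm of the palindrome) was in 35.2% of all windows, with 1 match for Cyp1b1 and 2 for Arnt, 1 of which overlapped an antioxidant element. The full palindrome GGTCANNNTGACC, in 0.0639% of all windows, had no match in these 4. These matches describe letters in a short window and are not binding sites.

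Between 18827792 and 44040507 reads per sample lay on the listed genes. The samples carrying replicate number 1 stood apart: in a principal component analysis the first axis (70.8% of variance) set them against replicates 2 and 3, whichever the treatment, and the second (12.4%) set samples that received fulvestrant against samples that did not. Replicates 2 and 3 of a group were much closer, with 21.1% to 35.2% of genes differing beyond the 5% limit of counting noise, against 69.5% to 75.8% for pairs that included replicate 1. All comparisons below were therefore made between samples with the same replicate number, and for the 5 members each is also given without replicate 1. Fits without replicate 1 rest on replicates 2 and 3 alone. Their small SE measures only the spread between those samples. All 8 fibroblast markers searched for were measured. The 7 skeletal muscle cell, 4 endothelial and 4 epithelial markers had no values among these genes and were not analysed here, and of 5 immune markers 2 had values, Cd68 and Lyz2. Their sum was 161 to 389 with vehicle, 90.7 to 361 with E2, 131 to 188 with E2 plus fulvestrant and 136 to 172 with fulvestrant, and its part in the results was not tested. The progesterone receptor gene Pgr, a standard estrogen target, was 3.68-fold higher with E2 than with vehicle (limma, adjusted p = 0.0343). That call was lost in 14 of 23 alternative settings, among them without the replicate block, without replicate 2 and without replicate 3, and the fold ran from 2.69 to 4.45 over the settings. Esr1 was 2.75-fold lower with fulvestrant than with vehicle (limma, adjusted p = 0.000993), a call lost in 1 of 24 settings, without the block.

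The level of Ahr itself was lower in each of the 6 samples with fulvestrant than in any of the 6 without it, a gap that 2.16% of all genes had in that direction. Normalized counts of Ahr were 1986, 766 and 773 in vehicle replicates 1, 2 and 3. They were 1335, 516 and 550 with E2, 341, 351 and 313 with E2 plus fulvestrant, and 315, 441 and 461 with fulvestrant alone. Replicate 1 held far more Ahr than replicates 2 and 3 in the vehicle and E2 groups but not in the 2 groups with fulvestrant, where the 6 values lay close together. The group means were 1175 ± 702 with vehicle, 800 ± 463 with E2, 335 ± 19.7 with E2 plus fulvestrant and 406 ± 79.1 with fulvestrant (SD, n = 3 each). In bulk RNA, fewer cells that express a gene and less of its RNA per cell cannot be told apart. Ahr lies on chromosome 12 (35497974 to 35535038, minus strand, GRCm38), and none of its exon sequence is shared with another gene on that strand.

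Fulvestrant alone differed from vehicle for Ahr by -1.40 on the log2 scale of normalized count plus 1 (SE 0.34, 95% interval -2.14 to -0.65), 2.64-fold lower. The difference was -2.65 in replicate 1, -0.79 in replicate 2 and -0.75 in replicate 3, so that all 3 pairs went the same way but replicate 1 moved most. Without replicate 1 it was -0.77 (SE 0.10), 0.586 of the vehicle level. With E2 present, the difference with fulvestrant was -1.11 (SE 0.34, 95% interval -1.86 to -0.36), with -1.97, -0.55 and -0.81 in the 3 pairs, and -0.68 (SE 0.10) without replicate 1. These comparisons share no samples. E2 alone against vehicle gave -0.57, -0.57 and -0.49 in the 3 pairs, which are close to each other, although the groups overlapped because of replicate 1. The fitted E2 difference was -0.54 (SE 0.34, 95% interval -1.29 to 0.20), and -0.53 (SE 0.10) without replicate 1. Against fulvestrant alone, E2 plus fulvestrant differed by -0.26 (SE 0.34), with 1 pair higher and 2 lower, and by -0.44 (SE 0.10) without replicate 1.

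**Figure D1:**
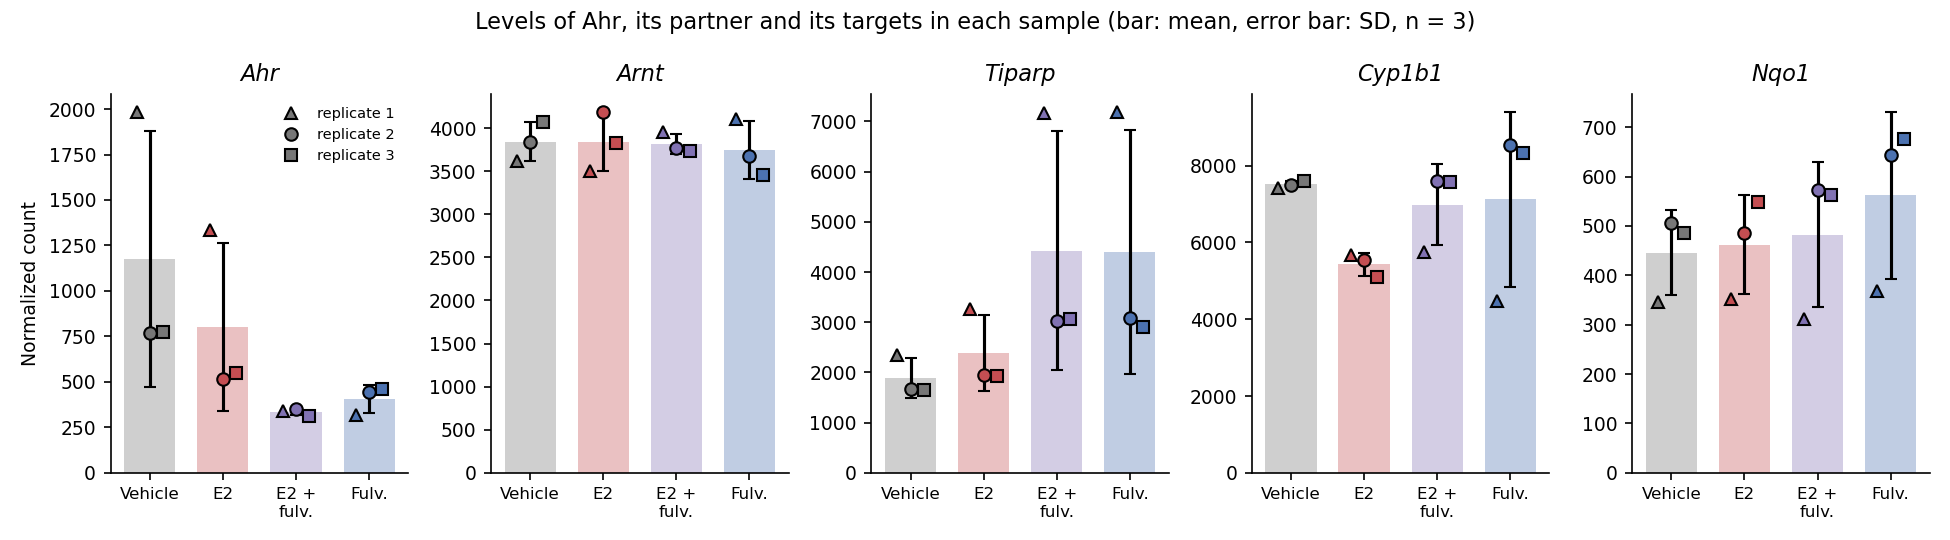
Normalized counts (vertical axes, linear from 0) of Ahr, Arnt, Tiparp, Cyp1b1 and Nqo1 in the 4 groups; bars are means, error bars SD over n = 3, and symbols the samples by replicate number. Ahr sits between 313 and 461 in the 6 samples with fulvestrant and between 516 and 1986 in the 6 without, Tiparp is highest in replicate 1 of the 2 fulvestrant groups (7175 and 7197), and Arnt stays between 3453 and 4193 throughout.

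Arnt, whose product is the obligate partner of AHR and of the hypoxia factors, was the steadiest member. Its 12 normalized counts ran from 3453 to 4193, and the 4 groups overlapped. The mean was 3845 ± 225 with vehicle, 3842 ± 343 with E2, 3821 ± 115 with E2 plus fulvestrant and 3749 ± 335 with fulvestrant (SD, n = 3 each). Fulvestrant against vehicle gave a log2 difference of -0.04 (SE 0.08, 95% interval -0.22 to 0.14), and E2 against vehicle gave 0.00 (SE 0.08, 95% interval -0.18 to 0.18). E2 plus fulvestrant differed from E2 by -0.01 (SE 0.08) and from fulvestrant by 0.03 (SE 0.08). The intervals bound any change of Arnt in this fit, and they do not show that it was the same in all groups. Without replicate 1 the fulvestrant difference was -0.15 (SE 0.06, 95% interval -0.29 to -0.01) and that of E2 0.02 (SE 0.06). Without it, E2 plus fulvestrant differed from E2 by -0.09 (SE 0.06) and from fulvestrant by 0.07 (SE 0.06).

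Tiparp, which encodes the ADP-ribosyltransferase that restrains AHR, was higher wherever fulvestrant was present. Its normalized counts were 2352, 1678 and 1645 with vehicle and 3257, 1953 and 1933 with E2. They were 7175, 3029 and 3066 with E2 plus fulvestrant and 7197, 3089 and 2911 with fulvestrant alone. The 3 fulvestrant samples were all above the 3 vehicle samples, whereas E2 plus fulvestrant overlapped E2, since replicate 1 with E2 exceeded replicates 2 and 3 with E2 plus fulvestrant. Replicate 1 had the highest Tiparp value of every group.

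Fulvestrant alone against vehicle gave a Tiparp log2 difference of 1.11 (SE 0.14, 95% interval 0.80 to 1.41), 2.15-fold, with 1.61, 0.88 and 0.82 in the 3 pairs. Fulvestrant in the presence of E2 gave 0.81 (SE 0.14, 95% interval 0.51 to 1.12), 1.76-fold, with 1.14, 0.63 and 0.67 in the pairs. Without replicate 1 these values were 0.85 (SE 0.06) and 0.65 (SE 0.06). The 2 fulvestrant groups were nearly level with each other, with a difference of 0.01 (SE 0.14, 95% interval -0.29 to 0.32). E2 alone against vehicle was higher in 3 of 3 pairs by 0.47, 0.22 and 0.23, with a fitted difference of 0.31 (SE 0.14). Without replicate 1 the last 2 differences were 0.02 (SE 0.06) and 0.23 (SE 0.06). In all 3 pairs Tiparp was higher and Ahr lower than with vehicle, both with E2 and with fulvestrant, 2 comparisons that share the vehicle samples.

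Cyp1b1, which encodes the estrogen-oxidizing enzyme, had lower values with E2 than with vehicle. Its normalized counts were 7428, 7496 and 7611 with vehicle, which are within a narrow range, and 5671, 5532 and 5098 with E2. The 3 E2 samples were all below the 3 vehicle samples, and 2.15% of all genes had such a gap in that direction. E2 against vehicle gave a log2 difference of -0.47 (SE 0.17, 95% interval -0.83 to -0.10), with -0.39, -0.44 and -0.58 in the pairs. Without replicate 1 it was -0.51 (SE 0.06).

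With E2 plus fulvestrant, Cyp1b1 counts were 5763, 7601 and 7575, all above the E2 samples, although replicate 1 exceeded the highest of them only narrowly. The log2 difference from E2 was 0.35 (SE 0.17, 95% interval -0.01 to 0.72), with 0.02, 0.46 and 0.57 in the pairs, and it was 0.51 (SE 0.06) without replicate 1. With fulvestrant alone the counts were 4483, 8548 and 8336. Here the replicates went opposite ways against vehicle, with -0.73 in replicate 1 and 0.19 and 0.13 in replicates 2 and 3, and the fitted difference was -0.14 (SE 0.17). Without replicate 1 the sign of that difference turned, to 0.16 (SE 0.06). E2 plus fulvestrant differed from fulvestrant by 0.02 (SE 0.17), and by -0.15 (SE 0.06) without replicate 1.

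Nqo1, which encodes the quinone reductase, had overlapping values in the 4 groups. Its normalized counts were 346, 505 and 486 with vehicle, 352, 486 and 547 with E2, 312, 572 and 563 with E2 plus fulvestrant, and 368, 643 and 676 with fulvestrant. Replicate 1 had the lowest value of each group. Fulvestrant against vehicle was higher in 3 of 3 pairs by 0.09, 0.35 and 0.48, with a fitted log2 difference of 0.30 (SE 0.10, 95% interval 0.09 to 0.52) and 0.41 (SE 0.09) without replicate 1. E2 against vehicle gave 0.05 (SE 0.10) and E2 plus fulvestrant against E2 gave 0.03 (SE 0.10). E2 plus fulvestrant was lower than fulvestrant alone in 3 of 3 pairs, with a difference of -0.22 (SE 0.10). Without replicate 1 these 3 differences were 0.06, 0.14 and -0.22 (SE 0.09 each).

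**Figure D2:**
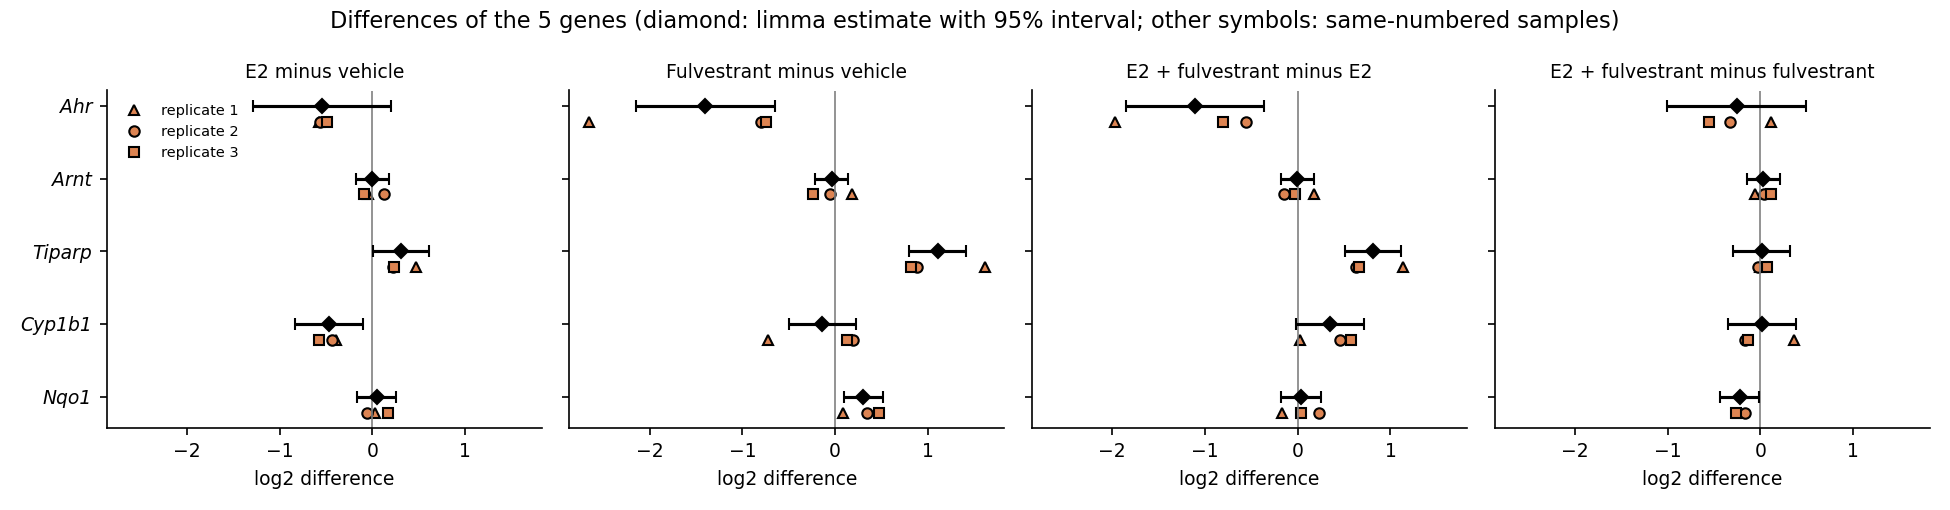
Log2 differences of the 5 genes (horizontal axes) in 4 comparisons; diamonds are limma estimates with 95% intervals over 12 samples, and the triangle, circle and square are the differences between samples of the same replicate number. For Ahr and Tiparp replicate 1 lies farthest from 0 under fulvestrant (-2.65 and 1.61), and for Cyp1b1 replicate 1 lies at -0.73 while replicates 2 and 3 lie above 0.

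A gene was called when its adjusted p was under 0.05 and its fold change over 1.2. For fulvestrant against vehicle, 12.5% of the 13233 genes were called, 6.76% as higher and 5.69% as lower, and 2 of the 5 members were, Tiparp as higher and Ahr as lower. That is 895 genes higher and 753 lower, and with CPM scaling, under which both members were called as well, it was 688 and 951. For E2 plus fulvestrant against E2, 9.6% of genes were called, 4.97% as higher, and 1 member was, Tiparp as higher. For E2 against vehicle, 0.0756% of genes were called, which is 10 genes, and 0 of the 5 members were. The 10 were all higher, but without replicate 1 the split was 51 higher and 8 lower, with only the 2 groups fitted it was 43 and 14, and without replicate 2 or replicate 3 no gene was called. For E2 plus fulvestrant against fulvestrant, and for the interaction of E2 with fulvestrant, limma called 0 genes, with 255 and 501 genes at an unadjusted p under 0.05. The members were listed with these comparisons known, so nothing is read from their counts. The Ahr call was lost in 6 of 24 alternative settings, namely without the replicate block, without a variance trend, with only the 2 groups fitted, without replicate 2, without replicate 3 and without vehicle replicate 1. For Tiparp the call against vehicle was lost without the block, and that against E2 was lost without the block, without replicate 2 and without replicate 3.

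Across all genes, agreement of the pairs and gaps between groups were common. For fulvestrant against vehicle, 24% of genes were higher in 3 of 3 pairs, as Tiparp and Nqo1 were, and 21.2% were lower in 3 of 3, as Ahr was. The 3 samples of each group did not overlap for 5.7% of genes as higher, Tiparp among them, and for 5.45% as lower, Ahr among them. For E2 plus fulvestrant against E2, 26.4% were higher in 3 of 3 pairs, like Tiparp and Cyp1b1, and 23.6% lower, like Ahr, and 5.97% did not overlap as higher, like Cyp1b1, and 6.54% as lower, like Ahr. For E2 against vehicle, 21.7% were higher in 3 of 3 pairs, like Tiparp, and 17.3% were lower, like Ahr and Cyp1b1. For E2 plus fulvestrant against fulvestrant, 11.8% were lower in 3 of 3 pairs, like Nqo1.

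The fulvestrant difference with and without E2 was compared directly by the interaction. It was 0.29 (SE 0.48) for Ahr, -0.29 (SE 0.20) for Tiparp, 0.49 (SE 0.23) for Cyp1b1, -0.27 (SE 0.14) for Nqo1 and 0.03 (SE 0.11) for Arnt on the log2 scale. All 5 intervals included 0, and that of Cyp1b1 ran from -0.03 to 1.00. Without replicate 1 the values were 0.09 (SE 0.14) for Ahr, -0.27 (SE 0.13) for Nqo1 and 0.06 (SE 0.09) for Arnt. They were then 0.35 for Cyp1b1 (95% interval 0.18 to 0.53) and -0.20 for Tiparp (-0.38 to -0.03), 2 intervals that left out 0, although neither gene was called.

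Levels per kilobase of exon give the order of the members. Over all samples the mean normalized count per kilobase was 1158 for Cyp1b1, 751 for Tiparp, 476 for Arnt, 314 for Nqo1 and 110 for Ahr. These levels lay at percentiles 91.9, 86.0, 76.3, 64.3 and 33.6 of all genes, so Ahr was the scarcest member. With vehicle the order by mean level per kilobase was Cyp1b1 (1286), Arnt (480), Tiparp (434), Nqo1 (287) and Ahr (191). There Arnt and Tiparp overlapped, at 453 to 509 and 377 to 540, and so did Nqo1 and Ahr, at 223 to 325 and 124 to 322. With fulvestrant Tiparp, at 668 to 1651 per kilobase, was above Arnt, at 431 to 514, in all samples and overlapped Cyp1b1, at 768 to 1464. Ahr, at 51.1 to 74.7, was then below Nqo1, at 237 to 435.

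The members also differed by replicate number. Replicate 1 minus the mean of replicates 2 and 3, on the log2 scale over the 4 groups, was 0.55 for Ahr, 0.94 for Tiparp, -0.31 for Cyp1b1, -0.69 for Nqo1 and -0.01 for Arnt. After subtraction of the mean of each replicate number, Ahr and Tiparp ran in opposite directions over the 12 samples, with a Pearson r of -0.96, and without that subtraction r was -0.48. All 12 points share the 4 treatments, so this is a description of 2 genes that both differ with fulvestrant. Ahr and Cyp1b1 had r = 0.34, and Ahr and Nqo1 r = -0.18, on the same subtracted scale.

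Among 11273 genes with a mean normalized count of at least 100, the patterns most like that of Ahr over the 12 samples, after the same subtraction, were those of Nedd9 (r = 0.995), Ehd3 (0.992), Bgn (0.985), Bmpr1b (0.982) and Arl5a (0.982). Nedd9, a scaffold protein of focal adhesions, had group means of 3958 with vehicle, 2983 with E2, 1285 with E2 plus fulvestrant and 1423 with fulvestrant. Bmpr1b, a receptor for bone morphogenetic proteins, had 590, 418, 207 and 241 in the same order, so both had the ranks of Ahr or close to them. The patterns most opposed to Ahr were those of Sh3kbp1 (r = -0.995), Tspan17 (-0.992) and Adamtsl4 (-0.989). For Tiparp the closest were Gas6, a ligand of TAM receptors (0.995), and Ppl (0.995). Gas6 group means were 35102, 41763, 80649 and 81791 in the order vehicle, E2, E2 plus fulvestrant and fulvestrant. For Cyp1b1 they were Cdc42ep3 (0.981) and Smad7 (0.939), for Arnt Phactr2 (0.951) and Vps13c (0.949), and for Nqo1 Ddx56 (0.935) and B4galt7 (0.928). Without the subtraction the r with Ahr was 0.84 for Nedd9 and 0.68 for Ehd3, because the replicate numbers then add their own differences. It was 0.92 for Bgn, 0.82 for Bmpr1b, 0.86 for Arl5a, -0.60 for Sh3kbp1, -0.14 for Tspan17 and -0.87 for Adamtsl4. For Tiparp it was 0.98 with Gas6 and 0.51 with Ppl, and for Nqo1 0.65 with Ddx56 and 0.40 with B4galt7. For Arnt it was 0.30 with Phactr2 and 0.91 with Vps13c. For Cyp1b1 it was 0.84 with Smad7 but -0.17 with Cdc42ep3, so that match was lost.

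The rest of the pathway was covered by 7 lists holding 53 measured genes that are not members. The lists were chosen with earlier results of these data known. The counts and p-values of the 53 genes therefore describe these samples and are not independent support. With fulvestrant against vehicle, 18 of the 53 were higher, 3 were lower and 32 were not called, beside 12.5% called among all genes. Their median log2 difference was 0.20, against 0.01 for all genes. With E2 plus fulvestrant against E2, 11 were higher and 2 lower, with a median of 0.10 against 0.01, beside 9.6% called among all genes. The counts of each list below stand beside these same shares, 12.5% without E2 and 9.6% with it. Of the 53, 9 were called without replicate 2 and 6 without replicate 3 for fulvestrant against vehicle, and 4 and 4 with E2 present. Slc7a5, Sult1a1 and Slc7a11 were called in both comparisons whichever replicate number was left out. None of the 53 was called for E2 against vehicle or for E2 plus fulvestrant against fulvestrant.

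**Figure D3:**
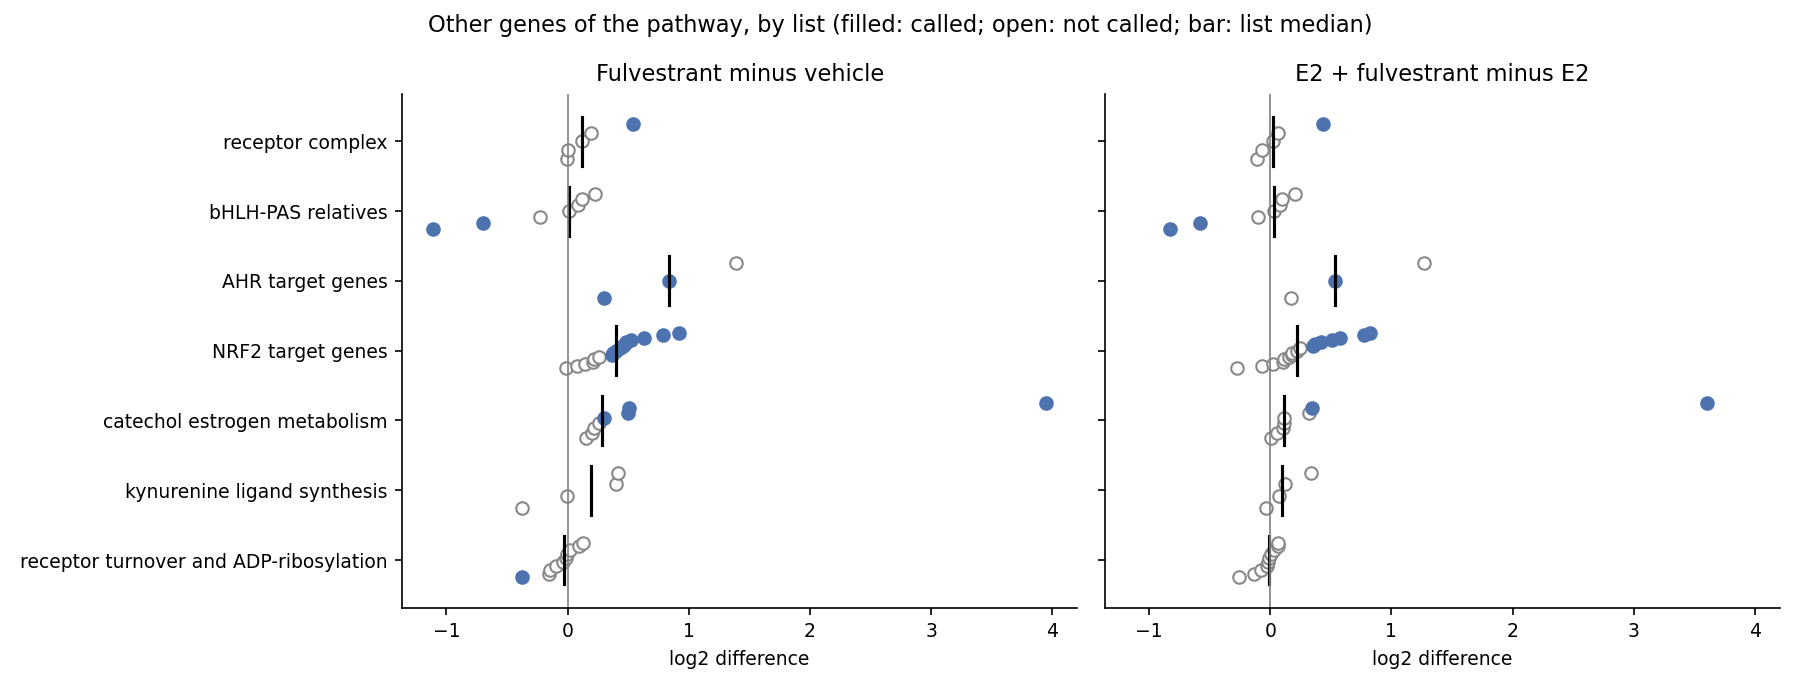
Log2 differences (horizontal axes) of the pathway genes that are not members, by list, for fulvestrant against vehicle and for E2 plus fulvestrant against E2; filled points are called genes, open points genes not called and bars list medians. NRF2 targets lie mostly to the right of 0 (medians 0.40 and 0.22), and Sult1a1 lies far to the right at 3.95 and 3.61.

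Of the 5 genes of the cytoplasmic receptor complex other than Ahr and Arnt, 1 was called in either fulvestrant comparison, Hsp90aa1, the inducible HSP90 chaperone gene. It rose by 0.54 with fulvestrant against vehicle (SE 0.09, limma, adjusted p = 0.00224) and by 0.43 with E2 present (SE 0.09, adjusted p = 0.00892). Its vehicle counts were 10833, 39415 and 37264 and its fulvestrant counts 13652, 58609 and 60904, so that each pair rose although the groups overlapped.

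Of 7 measured bHLH-PAS relatives, 2 fell in both fulvestrant comparisons. Arnt2, an alternative partner subunit, fell by 0.70 without E2 (SE 0.16, limma, adjusted p = 0.0159) and by 0.82 with E2 (SE 0.16, adjusted p = 0.00851). It is scarce, with 70.6 to 139 normalized counts with vehicle and 34.8 to 98.9 with fulvestrant, and its mean per kilobase over all samples was 11.1 against 476 for Arnt. Npas3, a neural family member, fell by 1.11 (SE 0.16, adjusted p = 0.00125) and by 0.58 (SE 0.16, adjusted p = 0.0394). Of the 7 relatives, 4 were above 0 and 3 below for fulvestrant against vehicle. Without replicate 1, Arnt2 gave -0.54 without E2 and was not called (adjusted p = 0.067). Npas3 then gave -0.33 with E2 and was not called (adjusted p = 0.307). In that fit Hif1a (0.28, limma, adjusted p = 0.00395) and Arntl (0.32, adjusted p = 0.00856) were called as higher without E2, but not with it. Ahrr, which encodes the AHR repressor, was not analysed here.

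Of the other AHR targets listed, 3 were measured. Slc7a5, a subunit of the transporter that carries tryptophan and kynurenine, rose in both fulvestrant comparisons. Its normalized counts were 6933, 7168 and 6746 with vehicle and 8432, 8783 and 7927 with E2. They were 12596, 12068 and 11656 with E2 plus fulvestrant and 12624, 11848 and 12807 with fulvestrant. The fulvestrant samples lay above all others, and replicate 1 did not stand apart. The log2 difference was 0.84 without E2 (SE 0.06, limma, adjusted p = 1.8e-05) and 0.53 with it (SE 0.06, adjusted p = 0.000223). Nfe2l2, which encodes NRF2, rose by 0.30 without E2 (SE 0.07, adjusted p = 0.0106) and gave 0.17 with it (adjusted p = 0.119), and without replicate 1 its fold change of 1.17 missed the threshold. Ugt1a6b gave 1.39 (SE 0.43, adjusted p = 0.052), and its value is uncertain because it shares exons with neighbouring genes of its cluster. It also turned on replicate 1, without which it was 0.75 (SE 0.15) and was called (adjusted p = 0.007), as it was with E2 present (0.56, adjusted p = 0.0375). Cyp1a1, the usual readout of AHR activity, was not analysed here.

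The list of NRF2 targets was the longest and held the most called genes. By share the AHR targets were close to it for fulvestrant against vehicle, with 2 of 3 called. With E2 present they were below it, with 1 of 3 called. Of 17 NRF2 targets other than Nqo1, 11 rose with fulvestrant against vehicle, none fell and 6 were not called, with a median log2 difference of 0.40. With E2 present 7 rose and none fell, with a median of 0.22. Slc7a11, the cystine transporter subunit, rose by 0.92 (SE 0.12, limma, adjusted p = 0.000678) and 0.82 (SE 0.12, adjusted p = 0.00153). Hmox1, the heme oxygenase that degrades heme, rose by 0.78 (SE 0.14, adjusted p = 0.0038) and 0.78 (SE 0.14, adjusted p = 0.00485). Srxn1, which repairs oxidized peroxiredoxins, rose by 0.63 (SE 0.10, adjusted p = 0.00188) and 0.58 (SE 0.10, adjusted p = 0.00385). Sqstm1, an autophagy receptor, rose by 0.52 (SE 0.07, adjusted p = 0.000825) and 0.37 (SE 0.07, adjusted p = 0.00698). Nqo1, a target of the same factor, gave 0.30 and 0.03 in these comparisons.

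The NRF2 targets also differed by replicate number. Hmox1 counts were 1436, 23141 and 21763 with vehicle and 1992, 41610.2 and 44536 with fulvestrant. Of the 17 genes, 16 were lower in replicate 1 than in replicates 2 and 3 over the 4 groups, with a median log2 difference of -0.94 and a range of -3.94 to 0.02. Nqo1 was lower there as well, by -0.69, whereas Ahr and Tiparp were higher. Without the replicate block none of the 17 was called in either comparison, and with only the 2 groups fitted 7 were higher in each. The counts were 12 and 8 higher without replicate 1, 5 and 2 without replicate 2, and 3 and 2 without replicate 3. What set replicate 1 apart was not tested.

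In catechol estrogen metabolism, 4 of 8 genes other than Cyp1b1 and Nqo1 rose with fulvestrant against vehicle and 2 with E2 present. Sult1a1, a phenol sulfotransferase that conjugates estrogens and catechols, had the widest difference among the listed genes in both fulvestrant comparisons. Its normalized counts were 33.1, 32.2 and 32.8 with vehicle and 64.1, 43.1 and 36.9 with E2. They were 1001, 452 and 435 with E2 plus fulvestrant and 1061, 409 and 324 with fulvestrant. The fulvestrant samples were all far above the others, and replicate 1 was again the highest of them, as for Tiparp. The log2 difference was 3.95 without E2 (SE 0.26, limma, adjusted p = 1.7e-05) and 3.61 with it (SE 0.26, adjusted p = 1.7e-05), and it was 3.45 and 3.44 without replicate 1.

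Por, the reductase that supplies electrons to CYP1B1, rose by 0.51 (SE 0.07, limma, adjusted p = 0.00132) and 0.35 (SE 0.07, adjusted p = 0.0122). Gstp1, a glutathione transferase, rose by 0.50 without E2 (SE 0.11, adjusted p = 0.0142), and Cyb5a, an electron donor, rose by 0.30 (SE 0.06, adjusted p = 0.0111). With E2 present they gave 0.32 (adjusted p = 0.0974) and 0.11 (adjusted p = 0.292).

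**Figure D4:**
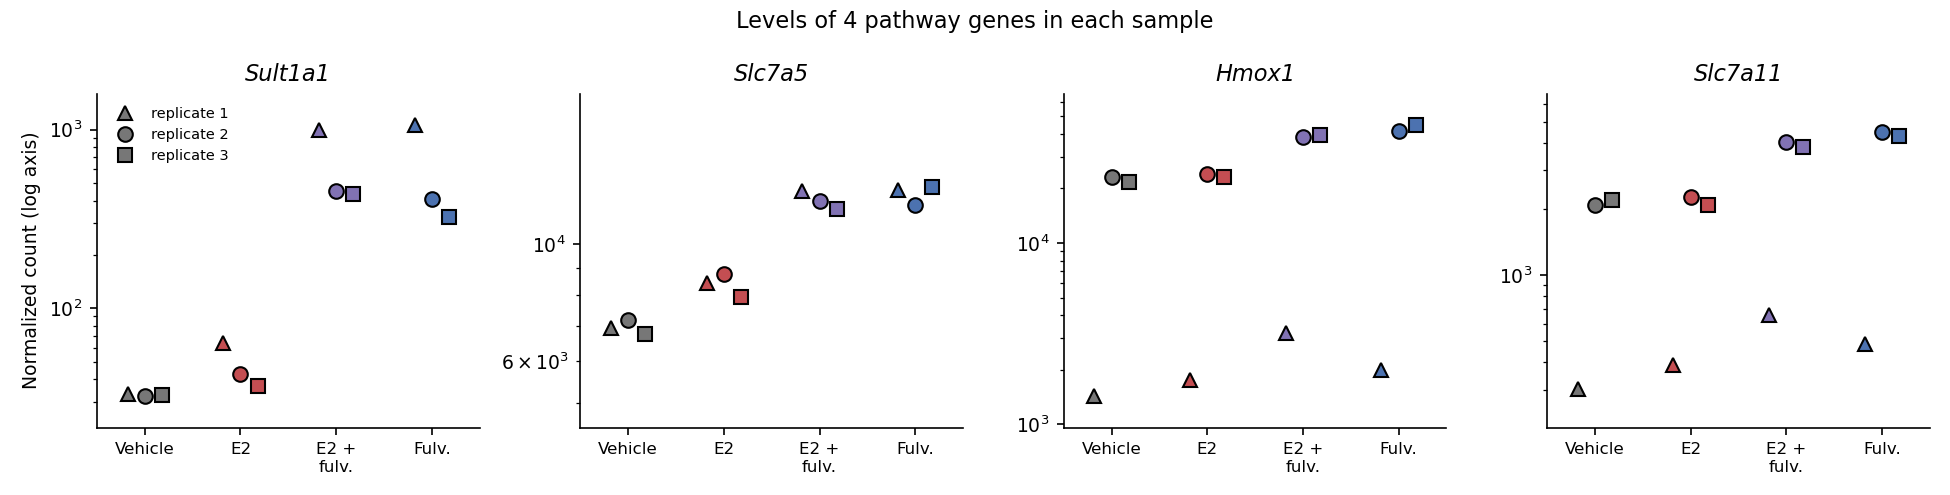
Normalized counts (log axes) of Sult1a1, Slc7a5, Hmox1 and Slc7a11 in each sample by group, with symbols for the replicate number. Sult1a1 and Slc7a5 separate the samples with fulvestrant from those without at every replicate number, whereas for Hmox1 and Slc7a11 replicate 1 lies far below replicates 2 and 3 and the rise is seen between samples of the same number.

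Among 10 genes of receptor turnover and ADP-ribosylation other than Tiparp, 1 was called. Parp10, a mono-ADP-ribosyltransferase, fell by 0.38 with fulvestrant against vehicle (SE 0.10, limma, adjusted p = 0.0277) and gave -0.26 with E2 present (adjusted p = 0.119). Without replicate 1, Parp14 was also called as lower with fulvestrant against vehicle (-0.37, limma, adjusted p = 0.00962), but not with E2 present. The ubiquitin ligase subunits Cul4b, Ddb1 and Rbx1 and the ligase Stub1 were not called in any comparison. Of the 4 measured enzymes that make kynurenine-type AHR ligands none was called, and their median difference was 0.20 with fulvestrant against vehicle. These 4 went both ways, 2 above 0 and 2 below, from -0.38 to 0.42.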

How the data were processed

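RNA-Seq of 12 HAF samples was analyzed. The authors trimmed reads with Trimmomatic 0.39, aligned them to mm10 with STAR 2.5.2, counted them per gene with HTSeq 0.13.5, removed counts below 10 and normalized with DESeq2 1.37; the deposited values are normalized counts, a signal per gene and sample. Multiplying by 1 factor per sample gave whole reads for 100% of values (tolerance 0.01), which supplied the depth. Batch adjustment, which the methods describe, had not removed the difference between replicate numbers from these values.

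Log2(value + 1) of all 13233 genes was fitted with limma 3.58.1 (R 4.3.3), with group and replicate number as a block, all 12 samples in 1 fit, a variance trend and Benjamini-Hochberg adjustment over all genes. Deviations from group means correlated at 0.63 to 0.92 in the 18 same-number pairs, which met the rule for pairing by the numbers in the labels (every pair over 0.1). This separates number 1 from 2 and 3, but not 2 from 3: between those, 12 pairs of different number correlated at 0.63 to 0.79 as well. Symbols and positions came from GENCODE M21 and sequences from RefSeq (GRCm38.p6), which held windows for 4 of the 5 members; exon sharing was computed per strand.

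The members and lists were chosen with earlier results of these data known. Named list genes are those called in a pairwise comparison, up to 4 per list by size, plus Ahrr, Cyp1a1, Nfe2l2 and Por; 2 other genes that fall under this rule are not reported here. Ugt1a6b, Hif1a, Arntl, Parp14 and the ubiquitin ligase genes were named after their values were seen. Python 3.11.15 with pandas 2.3.3, numpy 2.4.6 and matplotlib 3.10.9 handled tables and plots. The alternatives concerned the block, the samples fitted, pseudocount, filter, normalization, variance trend, call rule and each replicate.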

Additional observations from a re-analysis of the deposited data

Results flagged for a closer look

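Gsta4, a glutathione transferase among the NRF2 targets, went opposite ways with E2 in the absence and in the presence of fulvestrant: E2 against vehicle was higher in 3 of 3 pairs (log2 difference 0.14), and E2 plus fulvestrant against fulvestrant was lower in 3 of 3 (-0.21). The difference between them, the interaction, was -0.35 (SE 0.12) with a limma adjusted p of 0.944, so it did not pass the threshold. Of all genes, 21.7% were higher in 3 of 3 pairs in the first comparison and 11.8% lower in the second. How many had both was not counted.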

How the results depend on the processing

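No called log2 difference changed sign. Over all alternatives, the differences of the listed genes other than the members lost a call 154 times and gained one 38 times. Without the replicate block the genes called fell from 10 to 1 for E2 against vehicle, from 1648 to 72 for fulvestrant against vehicle and from 1270 to 69 for E2 plus fulvestrant against E2; the members called fell to 0 in both fulvestrant comparisons and the listed genes from 21 and 13 to 2 and 2. A fit of only the 2 groups compared called 57 genes and 2 members for E2 against vehicle, 692 genes, 1 member and 11 listed genes for fulvestrant against vehicle, and 2 members for E2 plus fulvestrant against E2. A block of replicate 1 against 2 and 3 called 17 genes for E2 against vehicle and 2 members for E2 plus fulvestrant against E2. Without the variance trend 3 genes were called for E2 against vehicle and 1 member for fulvestrant against vehicle. CPM split the fulvestrant calls into 688 higher and 951 lower in place of 895 and 753.

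Leaving out 1 replicate gave 0 to 59 genes and 0 to 1 members for E2 against vehicle, 399 to 2312 genes, 1 to 3 members and 6 to 25 listed genes for fulvestrant against vehicle, and 316 to 1611 genes, 0 to 3 members and 4 to 16 listed genes for E2 plus fulvestrant against E2. It gave 0 to 4 genes for E2 plus fulvestrant against fulvestrant and 0 to 11 for the interaction. The most genes were called without replicate 1 in each of the 5 comparisons, and the fewest without replicate 2 or 3 in the first 3. The E2 difference of Ahr ran from -0.18 without vehicle replicate 1 to -0.89 without E2-group replicate 1. Ahr was called as lower with fulvestrant against vehicle in 18 of 24 alternatives and with E2 present in 5 of 24; Tiparp was called as higher in 23 and 21 of 24. Nqo1 was called as higher with fulvestrant against vehicle in 7 of 24. Cyp1b1 was called as lower with E2 against vehicle in 2 of 24 and as higher with E2 plus fulvestrant against E2 in 2 of 24, and Ahr as lower with E2 against vehicle in 1 of 24. The planned tests on read counts with edgeR and DESeq2 were not run: the deposited values are normalized counts, and the reads recovered from them served only for the depth. The number of replicates, 3 per group with 1 far from the other two replicates of its group, limits the precision.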
